A study of Mus musculus with 2 samples.

Results

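The 37 genes of mouse mitochondrial DNA were described in 2 long-read RNA libraries of gastrocnemius, a calf muscle. Members were all genes of the deposited tables whose annotated symbol starts with mt- and that the tables class as known genes; 21 of the 37 genes that GENCODE M21 places on chromosome M had at least 1 read, of 14451 annotated endogenous genes with reads. Both libraries came from female B6CASTF1/J mice, an F1 cross, aged 18 to 20 months, with no treatment, and each was made from 2 µg of RNA. The labels call them biological replicates 1 and 2 of 1 group. They carry the same donor record, and the number of animals behind each is not stated. Any p-value here thus speaks of these 2 libraries alone, and what it measures may be technical. In bulk tissue, fewer cells of a type and less RNA per cell cannot be told apart.

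Mitochondrial DNA is a small circle that is transcribed from both strands into long precursors. Transfer RNA genes lie between most of the ribosomal and coding genes, and cutting the tRNAs out of the precursor frees the neighbouring RNAs. The coding genes make core subunits of respiratory complexes I, III and IV and of ATP synthase (complex V), and the remaining subunits come from nuclear genes. Muscle depends on this system for sustained contraction. Pieces of mitochondrial DNA have also been copied into nuclear chromosomes, where they are annotated as pseudogenes.

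Several sequences are shown, some because the counts below depend on them and the gene ends as background. All are from GENCODE M21 transcripts on mm10, read 5′ to 3′ along the gene. The genes mt-Atp8 and mt-Atp6 share 43 bases (chromosome M, 7927 to 7969, plus strand), in which the capitals mark the start codon of mt-Atp6 and the stop codon of mt-Atp8:
mt-Atp8 and mt-Atp6 overlap: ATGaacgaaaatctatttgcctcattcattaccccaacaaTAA
The last 30 bases of mt-Co1 (6843 to 6872) hold a full stop codon, in capitals, whereas those of mt-Co3 (9361 to 9390), mt-Nd4 (11515 to 11544) and mt-Cytb (15259 to 15288) end in a single T past the last full codon, a stop that the poly(A) tail is known to complete:
mt-Co1: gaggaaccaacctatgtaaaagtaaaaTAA
mt-Co3: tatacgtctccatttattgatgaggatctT
mt-Nd4: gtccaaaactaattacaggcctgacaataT
mt-Cytb: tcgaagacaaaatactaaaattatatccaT
The first bases of mt-Nd3 (9459 to 9475, plus strand) and of its copy Gm28438 (chromosome 1, 24613103 to 24613119, minus strand) are shown with their single difference in capitals, T3C, counted from the first base of mt-Nd3:
mt-Nd3: atTaacctgtacactgt
Gm28438: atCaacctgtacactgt

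Reads of mitochondrial genes numbered 4039 in replicate 1 and 4943 in replicate 2. These were 0.361% (Wilson 95% interval 0.350 to 0.373) of the 1117891 reads on annotated endogenous genes in replicate 1 and 0.507% (0.493 to 0.521) of 975696 in replicate 2. As counts per 1000000 such reads (CPM), the summed level was 3613 and 5066, or 4340 ± 1027 (SD, n = 2). A long read is counted once whatever its length, so CPM is a level in reads, not divided by length. Whether RNAs of different length were read with equal yield was not tested, and annotated length is given where genes are compared. A count of 0 allows 3 reads, equal to 2.68 CPM in replicate 1 and 3.07 in replicate 2. Intervals and these limits cover counting error only.

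Reads concentrated on mt-Co1, the catalytic subunit of cytochrome c oxidase, and mt-Cytb, the only mitochondrially encoded subunit of complex III. The gene mt-Co1 (chromosome M, 5328 to 6872, plus strand, 1545 bases) held 1188 reads in replicate 1 and 1731 in replicate 2. The gene mt-Cytb (14145 to 15288, plus strand, 1144 bases) held 1181 and 1201. Together they took 58.7% of mitochondrial gene reads in replicate 1 and 59.3% in replicate 2. Counted without nuclear copies, they were level in replicate 1, with 29.4% (28.0 to 30.8) on mt-Co1 and 29.2% (27.9 to 30.7) on mt-Cytb. In replicate 2 their intervals did not overlap, at 35.0% (33.7 to 36.4) and 24.3% (23.1 to 25.5). By mean CPM they ranked 51 and 62 among all 14451 genes with reads. With the nuclear copies described below joined to it, mt-Co1 held 1478 reads in replicate 1 and 2116 in replicate 2, above mt-Cytb in both.

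The subunits of complex I, the NADH dehydrogenase, differed widely among themselves. Mt-Nd1 (957 bases) held 377 and 422 reads in replicates 1 and 2, and mt-Nd2 (1038 bases) held 297 and 327. Mt-Nd4 (1378 bases) held 151 and 238, and mt-Nd5 (1824 bases), the longest coding gene, 127 and 128. The short subunits were low in both libraries: mt-Nd3 (348 bases) held 6 and 14 reads, and mt-Nd4l (297 bases) 0 and 1. Mt-Nd6, the only coding gene on the minus strand, held 4 reads in each. All complex I genes together took 23.8% and 22.9% of mitochondrial gene reads.

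Next to mt-Co1, the other complex IV subunits were several times lower. Mt-Co2 (684 bases), which takes electrons from cytochrome c, held 120 reads in replicate 1 and 193 in replicate 2. Mt-Co3 (784 bases) held 161 and 240. Of the ATP synthase subunits, mt-Atp6 (681 bases), part of the proton channel, held 196 and 204 reads, and mt-Atp8 (204 bases) held 2 and 0. The 2 are known to be translated from 1 shared mRNA. How a read that covers both was assigned is not given in the sources used here, and the same holds for mt-Nd4l and mt-Nd4, which share 7 bases.

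The ribosomal RNAs did not hold the most reads among the members. Whether rRNAs and tRNAs were captured with the same yield as mRNAs was not tested, so their order in reads need not be that in the tissue. Mt-Rnr1 (12S, 955 bases) held 51 reads in replicate 1 and 64 in replicate 2, and mt-Rnr2 (16S, 1582 bases) held 159 and 166. Together they were 5.20% and 4.65% of mitochondrial gene reads. Of 22 tRNA genes, 16 had no read in either library and 6 had reads, at most 8 in 1 library. Mt-Tt held 8 and 2 reads, and mt-Tm 5 and 6. The 9 minus-strand genes together held 6 reads in each library.

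In order of mean CPM of the gene alone, mt-Co1 (1418 ± 503, SD, n = 2) and mt-Cytb (1144 ± 123) were followed by mt-Nd1 (385 ± 67.4) and mt-Nd2 (300 ± 49.1). In the run of genes that came next, neighbours differed by less than the larger of their SDs: mt-Co3 (195 ± 72.1), mt-Atp6 (192 ± 23.9), mt-Nd4 (190 ± 77.0), mt-Rnr2 (156 ± 19.7), mt-Co2 (153 ± 64.0) and mt-Nd5 (122 ± 12.4). Mt-Rnr1 followed at 55.6 ± 14.1 and mt-Nd3 at 9.86 ± 6.35. The means of mt-Co1 and mt-Cytb also differed by less than the SD of mt-Co1. This order depends on where reads shared with nuclear copies are counted. With the copies described next joined to their gene, mt-Atp6 was at 384 ± 42.9 CPM, mt-Co3 at 379 ± 159, mt-Co2 at 314 ± 99.7 and mt-Nd3 at 20.7 ± 14.2. The first of these then lay level with mt-Nd1, and the means of mt-Atp6, mt-Co3 and mt-Co2 all lay above that of mt-Nd2. Joined in the same way, mt-Co1 was at 1745 ± 599 CPM and mt-Nd4 at 195 ± 77.5, while mt-Cytb stayed at 1144 ± 123.

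**Figure D1:**
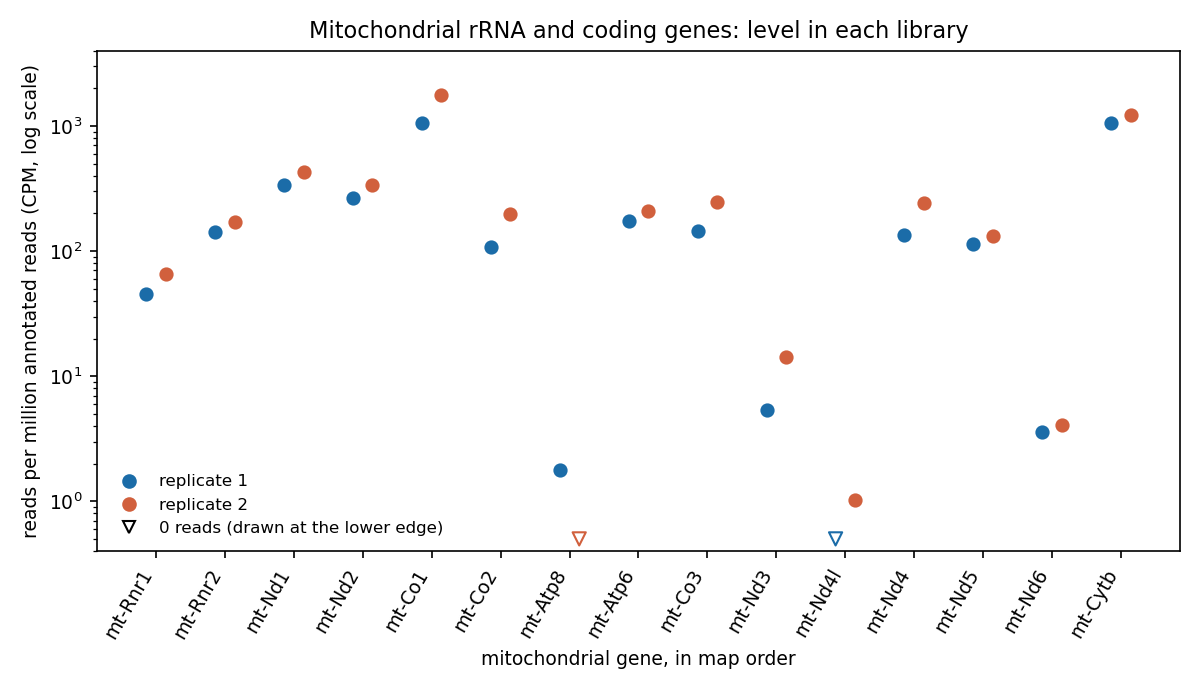
Level of each mitochondrial rRNA and coding gene in map order, in CPM on a log scale, with 1 point per library. Mt-Co1 and mt-Cytb lie above all other genes in both libraries, and mt-Atp8, mt-Nd3, mt-Nd4l and mt-Nd6 lie lowest.

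Nearly the whole of 5 members was matched by pseudogenes on chromosome 1 whose sequence is the same or nearly so. A block of 7 unprocessed pseudogenes on the minus strand of chromosome 1 (mm10, 24611535 to 24616197) follows the mitochondrial order from mt-Co1 to mt-Nd4. Over their whole length, Gm28661 was 100% identical to mt-Co2 (681 bases), Gm10925 to mt-Atp6 (678 bases), Gm28437 to mt-Co3 (783 bases) and Gm10222 to mt-Nd4l (294 bases). Gm28438 matched mt-Nd3 at 344 of 345 bases, the exception being T3C shown above. A read lying within an identical stretch cannot be placed by its sequence, so the values of these members are uncertain. The same holds for the parts of mt-Co1 and mt-Nd4 that Gm29216 and Gm28439 copy.

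Reads were divided about evenly between gene and copy for mt-Co2, mt-Atp6, mt-Co3 and mt-Nd3. In replicate 1, mt-Co2 held 120 reads and Gm28661 held 152; in replicate 2 they held 193 and 182. For mt-Atp6 and Gm10925 the counts were 196 and 199 in replicate 1 and 204 and 200 in replicate 2. For mt-Co3 and Gm28437 they were 161 and 137, then 240 and 240. Mt-Nd3 and Gm28438 held 6 and 6 reads in replicate 1 and 14 and 16 in replicate 2. The pair mt-Nd4l and Gm10222 differed, with 0 and 5 reads in replicate 1, where the copy's share was 100% (56.6 to 100), and 1 and 3 in replicate 2 (75.0%, 30.1 to 95.4). Over all 5 such pairs, the copy held 50.8% (47.7 to 53.9) of the reads of gene and copy in replicate 1 and 49.6% (46.9 to 52.3) in replicate 2. Both intervals include an even division.

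Copies of only part of a gene took a smaller share. Gm28439 is identical to the first 876 bases of mt-Nd4, 63.6% of it, and held 6 reads in each library, or 3.82% and 2.46% of the reads of gene and copy. Gm29216 matches the last 492 bases of mt-Co1 with 6 differences, all near its start (T1056A to A1066T, counted from the first base of mt-Co1). It held 238 and 336 reads, or 16.7% (14.8 to 18.7) and 16.3% (14.7 to 17.9). The last of those differences, A1066T, is in capitals here (mt-Co1 on chromosome M, 6378 to 6407; Gm29216 on chromosome 1, 24616171 to 24616197, minus strand):
mt-Co1: ggtggtctaaccggaAttgttttatccaac
Gm29216: ggattggcaggaTttgttttatccaac
On chromosome 2, Gm13340 was 97.61% identical to the whole of mt-Co1 and held 52 and 49 reads. Gm13341, 97.62% identical to mt-Co2, held none. All copies together held 795 reads in replicate 1 and 1032 in replicate 2, or 19.7% and 20.9% of the number on the mitochondrial genes.

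**Figure D2:**
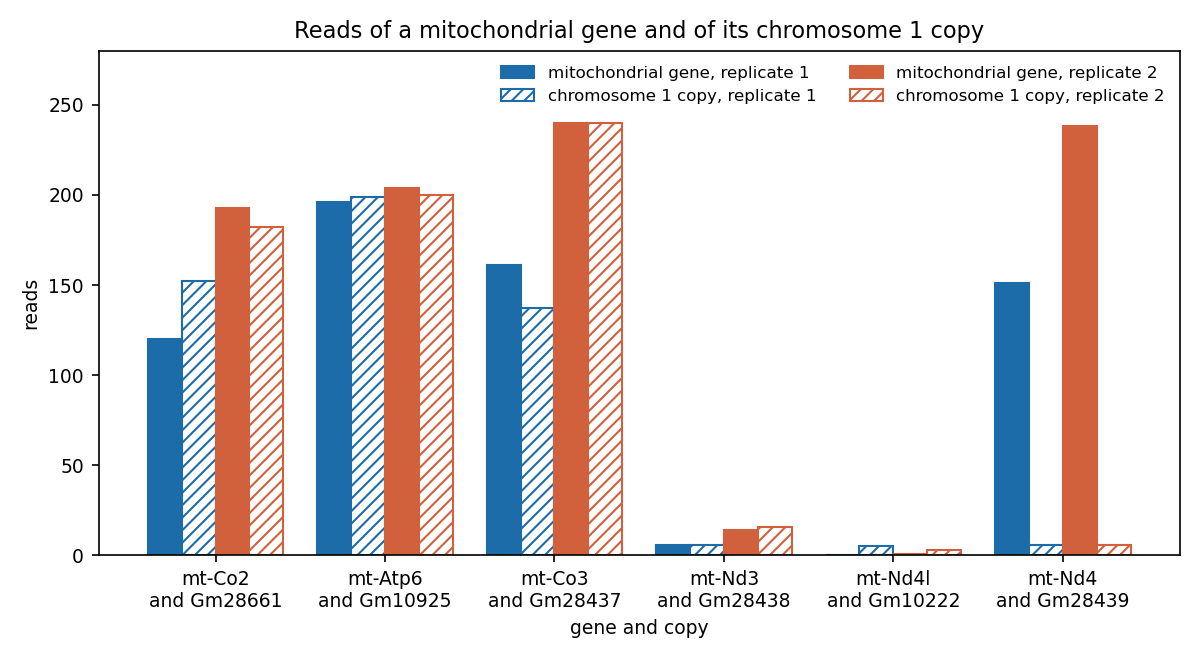
Reads of 6 mitochondrial genes (filled bars) and of their chromosome 1 copies (hatched bars) in each library. For mt-Co2, mt-Atp6, mt-Co3 and mt-Nd3 the bars of gene and copy are of similar height, while Gm28439, which covers 63.6% of mt-Nd4, held 6 reads in each library.

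Replicate 2 held more mitochondrial reads than replicate 1 for most members. Of the 14 members that reached 10 reads in all, 7 were higher in replicate 2 and 0 in replicate 1. The test was a 2-sided exact binomial test on edgeR TMM library sizes with Benjamini-Hochberg adjustment at 0.05. Over all 8394 genes tested, 7.06% were higher in replicate 2 and 4.61% in replicate 1. Calls were more frequent among genes with more reads: with at least 50 reads required, 14.5% of 3993 genes and 8 of 11 members were higher in replicate 2. On the log2 scale, the median of replicate 2 over replicate 1 was 0.51 for the 14 members and 0.01 for all genes tested. With 1 library on each side the test knows counting error only: an edgeR exact test with the common dispersion of the 2 libraries called 0 of the 14, with 0 at an unadjusted p under 0.05.

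Among the 7, the 3 complex IV genes and mt-Nd4 had the highest folds. Mt-Nd4 was 1.96-fold higher in replicate 2 (exact 95% interval 1.59 to 2.41, exact binomial adjusted p = 3.69e-09), and mt-Co2 2.00-fold (1.58 to 2.53, adjusted p = 7.84e-08). Mt-Co3 was 1.85-fold higher (1.51 to 2.27) and mt-Co1 1.81-fold (1.68 to 1.95). The order of these 4 depends on where reads shared with nuclear copies are counted. With copies joined, folds were 2.00 (1.73 to 2.32) for mt-Co3 and 1.93 (1.57 to 2.37) for mt-Nd4. They were 1.78 (1.66 to 1.90) for mt-Co1 and 1.71 (1.46 to 2.01) for mt-Co2. Folds of mt-Nd1 (1.39, 1.21 to 1.60), mt-Nd2 (1.37, 1.16 to 1.60) and mt-Cytb (1.26, 1.16 to 1.37) were lower. The intervals of mt-Co1 and mt-Cytb did not overlap; the difference between their folds was not tested. Complex IV genes took 36.4% (34.9 to 37.9) of mitochondrial gene reads in replicate 1 and 43.8% (42.4 to 45.2) in replicate 2.

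The remaining 7 members tested were not called. Mt-Atp6 had a fold of 1.29 (1.06 to 1.58, exact binomial adjusted p = 0.0852), mt-Rnr1 1.56 (1.06 to 2.30), mt-Rnr2 1.30 (1.04 to 1.62) and mt-Nd5 1.25 (0.971 to 1.61). Mt-Nd3 had 2.90 (1.05 to 9.19) on 20 reads, and the intervals of mt-Tm and mt-Tt each included 1. With the reads of the nuclear copies joined to their gene, an alternative chosen after seeing the data, 9 members were higher in replicate 2, against 7.09% of all 8387 genes then tested. The 2 gained were mt-Atp6 (1.27, 1.10 to 1.46) and mt-Nd3 (3.10, 1.54 to 6.66). Counted alone, the copies Gm28437 (2.17, 1.75 to 2.70), Gm29216 (1.75, 1.48 to 2.08) and Gm28661 (1.49, 1.19 to 1.85) were higher in replicate 2. The other copies tested, Gm10925, Gm13340, Gm28438 and Gm28439, were not called, and 7.06% of all genes were higher in replicate 2. Since reads within identical stretches cannot be placed, the folds of these copies are not independent of those of their genes.

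**Figure D3:**
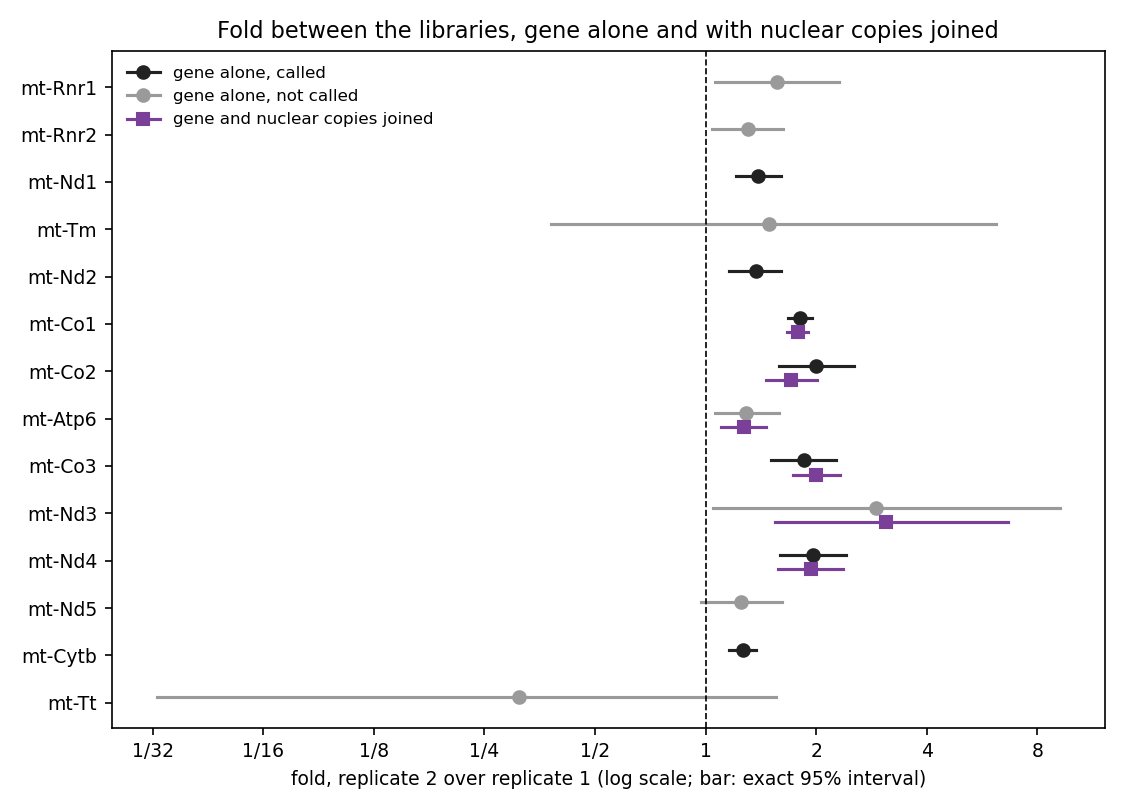
Fold of replicate 2 over replicate 1 for the 14 members tested, on a log scale with exact 95% intervals, for the gene alone (circles) and with its nuclear copies joined (squares). Of the 14 genes alone, 13 lie above 1, mt-Tt being the exception, and all joined values lie above 1.

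Length and other genes moved with this comparison. All members tested had models under 1900 bases, and genes of that length leaned the other way. Of tested genes with a mean model length of 1000 to 1900 bases, 2.40% were higher in replicate 2 and the median log2 ratio was -0.23, while the 6 members in that range had a median of 0.41. Genes of 1900 bases or more had a median of 0.17. Slow and oxidative fibre genes (Myh7, Myh2, Tnnt1 and Atp2a2) summed to 737 CPM in replicate 1 and 5828 in replicate 2, with 4 of 4 higher in replicate 2. Of 8 nuclear genes of mitochondrial proteins, 6 were higher in replicate 2, 0 in replicate 1, and 2 (Vdac1 and Tomm20) were not called. The median log2 ratio of the 8 was 0.38. Over all 3993 genes with at least 50 reads, a number that each gene of these lists reached, 14.5% were higher in replicate 2 and 10.1% in replicate 1. Of the 4 muscle fibre genes, Myh4 (1.74) and Atp2a1 (1.37) were higher in replicate 2, and Acta1 (0.941) and Ckm (0.968) higher in replicate 1. Of the 5 markers of other cells, Col1a1 was higher in replicate 2, Lyz2 and Mbp in replicate 1, and their sums were 126 and 123 CPM. Their part in the result was not tested.

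Nuclear genes that transcribe, process or maintain mitochondrial nucleic acids were called higher in replicate 2 about as often as other genes. Of 35 listed, 34 had reads and 28 were tested: 2 were higher in replicate 2, 0 in replicate 1 and 26 were not called. Over all genes tested, 7.06% were higher in replicate 2, a share near that of the list, and 4.61% in replicate 1. The 2 were Lrpprc, which stabilises mitochondrial mRNAs (89 and 193 reads, fold 2.69, 2.08 to 3.50), and Grsf1, an RNA-binding protein of mitochondrial RNA granules (78 and 114 reads, fold 1.81, 1.35 to 2.45). Among genes not called, the intervals of Mgme1 (2.07, 1.17 to 3.74), Polg (1.79, 1.13 to 2.86) and Fastk (1.16, 1.02 to 1.31) did not include 1. Nor did that of Ssbp1, whose fold of replicate 1 over replicate 2 was 1.47 (1.09 to 2.00). Such intervals are not adjusted for the number of genes tested. The share of all genes with an interval that leaves out 1 is not given here, so nothing is concluded from them. Slirp, the partner of Lrpprc, held 145 and 95 reads (fold 0.813, 0.621 to 1.06). The mitochondrial RNA polymerase Polrmt held 40 reads in each library, and Tfam, which packages mitochondrial DNA, 39 and 27. Fastk was the most abundant of the list at 497 ± 23.4 CPM (SD, n = 2).

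Nearly every read of a mitochondrial gene was counted on its annotated transcript. The share on Known models, those that match an annotated transcript, was 99.98% (99.86 to 100) in replicate 1, all but 1 of 4039 reads, and 100% in replicate 2. Over all annotated endogenous genes it was 63.59% and 59.31%. The mitochondrial genes are annotated without introns, whereas that set also holds genes with several exons. The share was not computed for single-exon genes alone. Whether the difference goes beyond gene structure was thus not tested. Fisher's exact test compared the share on Known models between libraries for genes with at least 20 reads in each. It called 1.01% of all 4057 genes tested after Benjamini-Hochberg adjustment. For the 11 members in that test it is uninformative, and it called 0 of them, also at an unadjusted p under 0.05: all but mt-Co1 (1187 of 1188 reads in replicate 1) had every read on a Known model in both libraries. No model spanned 2 or more rRNA or coding genes on their own strand. This describes the models, not the reads, since a read that covers 2 genes may have been counted on the Known model of 1 of them.

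A further 109 reads in replicate 1 and 88 in replicate 2 lay on 15 and 13 models of chromosome M outside the annotated genes. Of their 56 ends, 35 lay within 1 base of an annotated gene boundary. Some models began at the base where another of the same strand ended, at 14070 in both libraries. The same was seen at 15288, 15422, 15747 and 16089 in replicate 1, and at 14599, 15864 and 16039 in replicate 2. Several of these bases lie in the control region. How model ends were set is not known here, so shared ends or ends at gene boundaries need not be ends of RNA. Models with no base on a gene's own strand held 1.57% (1.23 to 1.99) of chromosome M reads in replicate 1 and 0.696% (0.501 to 0.966) in replicate 2. Some models touched a gene by a single base; with at least 50% of a model's bases required, the shares were 2.63% and 1.75%.

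Several positions recurred in both libraries. On the plus strand opposite mt-Nd6 and mt-Te, between mt-Nd5 and mt-Cytb, a pair of models had the same ends in both: 13565 to 14070 held 22 reads in replicate 1 and 8 in replicate 2, and 14070 to 14145 held 17 and 16. Models in the control region, the non-coding stretch past mt-Tp that holds the promoters, held 36 minus-strand reads in replicate 1 and 24 in replicate 2, and 14 and 7 plus-strand reads. A further plus-strand model of replicate 2, 15356 to 15864 with 8 reads, began opposite mt-Tp and ran on into the control region, and is not in those sums. The models with the most reads there were 15747 to 16089 with 31 reads in replicate 1 and 15422 to 15864 with 24 in replicate 2, both minus strand. Opposite the tRNA cluster before mt-Co1 the plus strand held 8 and 5 reads. Minus-strand models opposite rRNA, coding or plus-strand tRNA genes held 11 and 20 reads. Of these, 1 in replicate 2 ran from 8607 to 10173 with 10 reads, from the first base of mt-Co3 to the last base of mt-Nd4l, and 1 from 1094 to 2675 with 4 reads, exactly opposite mt-Rnr2.

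**Figure D4:**
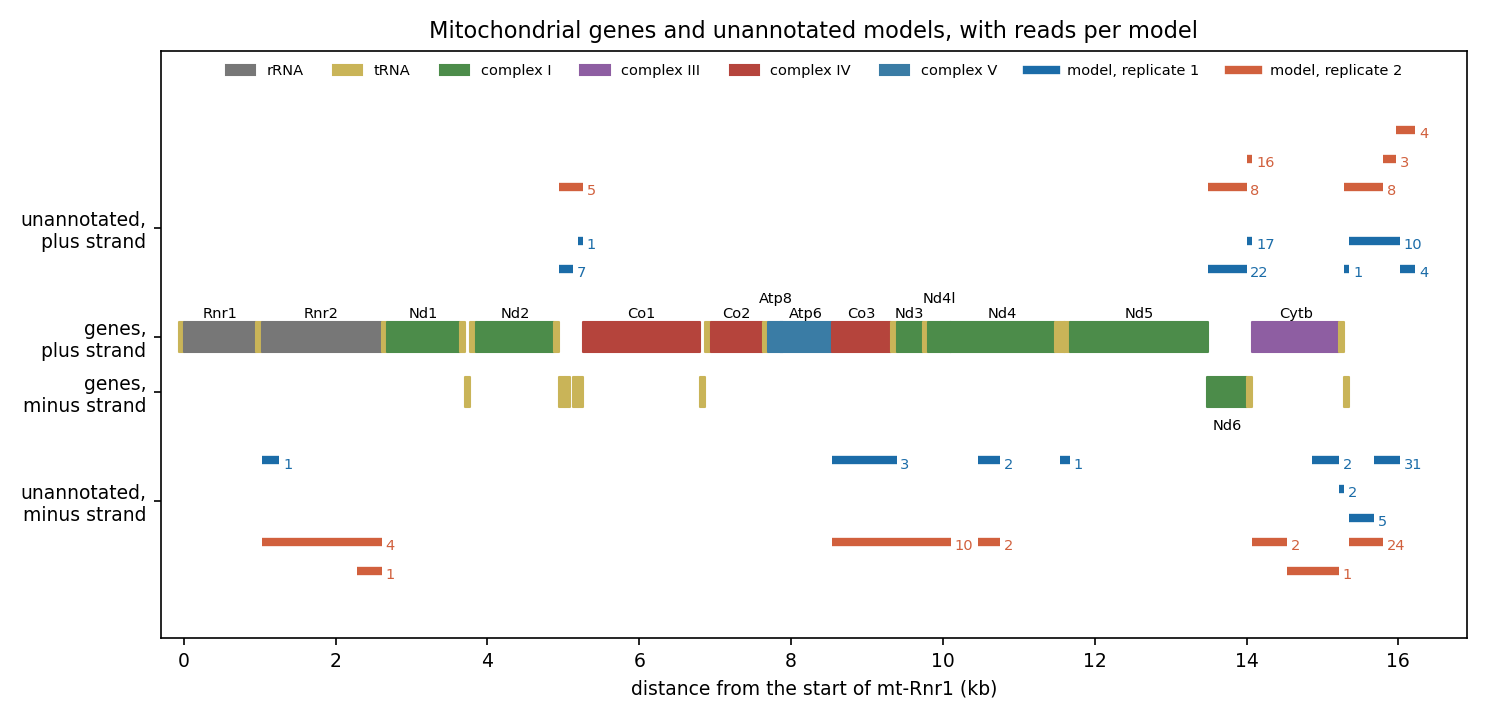
Map of mitochondrial genes by strand and of the unannotated models of each library, as distance in kb from the start of mt-Rnr1, with reads beside each model. Models cluster opposite mt-Nd6 and in the control region at the right end, in both libraries.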

How the data were processed

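Long-read RNA-seq of 2 gastrocnemius libraries was used. The authors deposited raw read counts per transcript model, 1 table per library, and a model is listed once it has 1 read. Exon number and model length are further columns, per the file headers. Models were named by TALON over GENCODE M21 on mm10, per the file headers. The aligner, its filters and the tool versions were not stated. Replicate 1 held 1175829 reads and replicate 2 held 1017384.

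Gene counts were sums over models, and CPM used reads of annotated endogenous genes, without spike-ins. Spike-in reads numbered 30211 in replicate 1 and 7609 in replicate 2. Whether this difference bears on the comparison of the libraries was not tested. Genes that reached 10 reads in all were compared by an exact binomial test with edgeR 4.0.16 TMM sizes in R 4.3.3 (factors 1.04 and 0.961). TMM factors were first taken over all genes (1.04 and 0.958). After those results had been seen, they were retaken over the genes tested, the setting used in earlier processing of these libraries. The change moved the calls over all genes from 600 to 593 higher in replicate 2 and from 374 to 387 higher in replicate 1; the members' calls were 7 and 0 under both. With 1 library per side no quasi-likelihood fit was possible. Shares have Wilson 95% intervals. Copies were genes sharing at least 50% of their 21-base words with a mitochondrial gene. Alternatives changed the scaling (DESeq2 1.42.0 size factors, total reads), the count filter, the models counted and the error model. The procedures were tested on simulated data that held counting error only. Such data cannot show how the calls behave under further spread between libraries. Members with at least 10 reads are named with their counts, others by range or count. Members, lists and rules were chosen with earlier results of these data known. Python 3.11.15, scipy 1.17.1 and Biopython 1.88 were used.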

Additional observations from a re-analysis of the deposited data

How the results depend on the processing

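The count of 7 members higher in replicate 2 was 7 to 9 under DESeq2 size factors, total reads with or without mitochondrial genes, TMM over all genes, other count filters, Known models alone, and unannotated models or nuclear copies joined. It was 0 with the edgeR exact test at the common dispersion, which called 0.191% of all genes higher in replicate 2. The choice of TMM genes and the joining of copies were added after seeing the data. No member's fold reversed under those of these settings for which folds were computed, all but the count filters. The summed level of 4340 CPM was 7111 with only Known models counted, where the total is smaller by construction, and 3613 to 5066 with 1 library left out. The share of reads on Known models was 97.8% with all chromosome M models in the denominator. The mean share on the opposite strand or between genes was 1.13%, 0.696% to 1.57% with 1 library left out, and 2.19% when 50% of a model's bases had to lie on a gene. No paired analysis was possible because both libraries belong to 1 group. The tRNAs, mt-Nd3, mt-Nd4l, mt-Nd6 and mt-Atp8 had too few reads for narrow intervals at this depth.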

Other observations

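A single read in replicate 1 gave the only model of a mitochondrial gene that was not an annotated transcript. It lay on mt-Co1 and lacked 61 bases between 6464 and 6526 of chromosome M, with the 3-base repeat TAT at both edges of the gap. It ended at 6938, the last base of the span of mt-Ts1. In replicate 2, a pair of unannotated plus-strand models lay opposite the chromosome 1 block of mitochondrial copies, at 24611535 to 24612044 with 2 reads and at 24612700 to 24613971 with 1 read.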
